A study of Homo sapiens with 84 samples.

Results

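The genes described here are the zinc finger genes of human chromosome 19, taken as every gene symbol that starts with ZNF and has its annotated peaks on chromosome 19. They are 260 of the 25868 gene symbols in the deposited peak annotation and hold 1910 of its 861439 peaks. Of the 260, 228 are protein-coding genes, 22 are long non-coding RNAs and 10 are transcribed pseudogenes. The set was chosen by measured values: an exon peak of 1 of them, ZNF254, was lower with the combination of tazemetostat and ipatasertib than with DMSO in these same libraries. Values of the combination against DMSO are therefore given as a description, and nothing is read from them. Tazemetostat against ipatasertib compares no library of that choice, and was added after the data were seen. It was tested in the same fit as the DMSO and combination groups of 4 lines. Those groups therefore enter its filter, its scaling and the spread behind its p-values. Tazemetostat against DMSO shares the DMSO libraries of these 4 lines with that choice.

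The libraries, 78 in all, are ATAC-seq of 9 established lines of triple-negative breast cancer. ATAC-seq counts the fragments that the Tn5 transposase releases from open chromatin. In SUM-159PT, SUM-149PT, MDA-MB-231 and MDA-MB-468 cells received DMSO, tazemetostat (which inhibits the histone methyltransferase EZH2), ipatasertib (which inhibits the AKT kinases) or the combination of the 2 agents. HCC1937, HCC1395, HCC1143, BT-549 and BT-20 received DMSO or the combination only. Every group had 3 libraries, each agent was used at 5 uM, and all cells were collected 24 hours after the day 0 treatment in medium with 2% FBS. The schedule is stated for MDA-MB-468: tazemetostat or DMSO began on day -5 and ipatasertib on day 0, so a comparison of the agents also compares a longer with a shorter exposure. Each line is a cell culture model of 1 tumour. A further 6 samples, of HCC1806, were not analysed here.

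Most zinc finger genes of chromosome 19 encode proteins of the KRAB family, in which an array of C2H2 fingers reads DNA and the KRAB box recruits TRIM28 (KAP1). TRIM28 in turn brings in SETDB1, which methylates histone H3 at lysine 9, and HP1 proteins, and the family is known above all for silencing retrotransposons. The genes arose by tandem duplication and lie in clusters. Their 3' exons, which encode the fingers, are themselves known to carry the lysine 9 mark, placed there in part by ZNF274, a member of the family.

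Libraries held 12292571 to 21459284 counts in peaks (median 16148052). Of 78 pairs of replicate libraries, 76 differed by less than the sampling noise of their counts, and the exceptions were DMSO replicate 3 of HCC1395 against replicates 1 and 2 of that group. A fit of that library by the profiles of all lines gave a share of 86.3% to HCC1395 and 11.1% to BT-20, the line with the highest exon sum of the zinc finger genes. The counts of the 3 libraries of a group were therefore summed and counted as 1 sample, with the line as the unit of replication (n = 9 lines, or 4 for the single agents). P-values measure the spread between lines. Summed accessibility at epithelial markers ran from 39.9 to 351 CPM (counts scaled to the total counts in peaks of the group) over the DMSO lines and at mesenchymal markers from 72.8 to 225. At the immune markers CD3E, CD14 and SPI1 it was 48.0 to 84.2, and at endothelial markers 29.1 to 61.1. No peak analysed here was assigned to PTPRC, the defining leukocyte gene. In bulk libraries, fewer cells with an open site and a less open site in each cell cannot be told apart, and DNA copy number of the lines was not analysed here.

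The promoters of 222 of the 260 genes were matched in RefSeq (GRCh38.p14), as windows from 250 bases before to 50 bases after the gene's start, and 215 of these lie under a peak. The 250 bases before the start are shown for 5 genes named in the results below. ZNF274 has the promoter with the most counts of the family. ZNF726 and ZNF544 were among the genes with the largest well-measured differences with the combination, which are given as a description. ZNF135 and ZNF714 were open in some lines and nearly closed in others. All 5 are read 5′ to 3′ on the plus strand. Capitals mark CCGGAAG or its reverse complement CTTCCGG, the core bound by ETS factors such as GABPA, and GGGCGG or CCGCCC, the GC box bound by SP and KLF factors.
ZNF274 (chr19:58182811-58183060): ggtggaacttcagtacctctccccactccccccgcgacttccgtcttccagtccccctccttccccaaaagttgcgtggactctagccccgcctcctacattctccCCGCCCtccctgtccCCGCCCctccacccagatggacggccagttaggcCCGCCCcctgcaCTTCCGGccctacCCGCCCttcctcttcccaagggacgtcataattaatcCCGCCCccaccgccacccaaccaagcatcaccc
ZNF726 (chr19:23914636-23914885): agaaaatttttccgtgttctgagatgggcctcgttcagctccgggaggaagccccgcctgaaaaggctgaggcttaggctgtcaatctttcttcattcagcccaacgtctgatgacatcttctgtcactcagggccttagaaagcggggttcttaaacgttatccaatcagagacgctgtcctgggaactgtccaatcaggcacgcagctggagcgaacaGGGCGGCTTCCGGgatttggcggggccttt
ZNF544 (chr19:58228664-58228913): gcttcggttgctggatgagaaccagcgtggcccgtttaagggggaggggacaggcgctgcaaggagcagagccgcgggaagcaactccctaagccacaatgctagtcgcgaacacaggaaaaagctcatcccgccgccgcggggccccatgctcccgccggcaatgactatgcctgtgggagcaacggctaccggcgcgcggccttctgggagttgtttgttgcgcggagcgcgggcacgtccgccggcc
ZNF135 (chr19:58058989-58059238): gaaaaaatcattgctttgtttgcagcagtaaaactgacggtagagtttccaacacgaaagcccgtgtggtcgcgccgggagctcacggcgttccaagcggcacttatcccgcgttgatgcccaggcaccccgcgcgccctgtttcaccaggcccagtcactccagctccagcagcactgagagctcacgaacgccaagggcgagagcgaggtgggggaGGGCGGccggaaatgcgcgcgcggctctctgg
ZNF714 (chr19:21081953-21082202): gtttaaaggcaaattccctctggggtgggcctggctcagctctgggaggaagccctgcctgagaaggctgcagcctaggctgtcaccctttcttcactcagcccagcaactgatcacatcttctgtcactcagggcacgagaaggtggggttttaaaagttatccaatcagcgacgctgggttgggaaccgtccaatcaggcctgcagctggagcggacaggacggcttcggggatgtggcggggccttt

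ZNF274 held the ETS core and 5 GC boxes, ZNF726 1 of each side by side, and ZNF135 a GC box alone. No such letters are in the bases shown for ZNF544 and ZNF714. ZNF726 and ZNF714, from 1 gene cluster, share a longest run of 21 identical bases, against at most 10 in any other pair of the 7 promoters compared. Over all 222 windows of 300 bases, searched on both strands, CCGGAAG was in 44.6% of the zinc finger genes of chromosome 19. The share was 32% in 225 ZNF genes of other chromosomes, 13.0% in 949 other genes of chromosome 19 and 12.7% in all 18361 promoters. GGGCGG was in 65.8% against 53.1% of all promoters and 65.4% of other chromosome 19 genes. GCGCATGC, a core of the NRF1 motif, was in 4.50% against 3.92% of all promoters, and TGACGTCA, the cAMP response element, in 4.50% against 2.31%. CAAGATGGC was in 1.35% against 1.74% and CCATCTTG in 2.25% against 2.45%; both are YY1 letters, and the second is part of the reverse complement of the first. The windows held a median of 20.5 CpG pairs against 20 in all promoters. Of the 6 motifs searched, the ETS core had the widest gap to the other promoters of the same length.

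Most of the members' promoters were open in untreated cells. Of 260 genes, 217 had a peak annotated as promoter, 134 had an exon peak and 106 had both. Promoter peaks had a median width of 1218 bp and exon peaks of 298.5 bp. The promoter counts of the family summed to 3008 CPM in the median DMSO line, from 2018 CPM in SUM-159PT to 4134 CPM in MDA-MB-468. SUM-149PT and SUM-159PT gave the family 0.755% and 0.776% of all promoter counts and MDA-MB-468 1.38%, with the other 6 lines between them. Exon counts of the family ranged from 93.6 CPM in SUM-159PT to 512 CPM in BT-20 (median 220).

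The highest promoter sums over the DMSO lines belonged to ZNF274, ZNF837, ZNF524 and ZNF787. ZNF274, which recruits SETDB1, had 82.3 CPM in HCC1143, 44.4 in BT-20, 44.2 in BT-549, 39.5 in MDA-MB-468, 38.3 in MDA-MB-231, 36.4 in HCC1937, 31.8 in HCC1395, 26.3 in SUM-149PT and 14.1 in SUM-159PT. HCC1143 was high and SUM-159PT low in ZNF274, with the other lines close together. ZNF837 was also highest in HCC1143, at 76.4 CPM, and lowest in SUM-149PT, at 26.0 CPM. ZNF787 ran only from 25.9 CPM in SUM-149PT to 37.1 CPM in MDA-MB-468, so it varied little between lines. The lowest sums were those of ZNF177, ZNF331, ZNF541 and ZNF222. ZNF331, an imprinted gene, reached at most 0.961 CPM in any DMSO line, and ZNF177 at most 1.04 CPM. The promoters of these genes were thus near closed in all 9 lines. Their other peaks need not be, and the exon sum of ZNF541 was 2.79 to 12.3 CPM over the DMSO lines. The genes whose gene sum over the 9 DMSO lines was most like that of ZNF254 were ZNF274 (Pearson r = 0.953), ZNF724 (0.936), ZNF544 (0.874) and ZNF726 (0.816). These are descriptions over 9 points, 1 for each line, and a gene's copy number in a line moves all its values.

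Other members were open in some lines and shut in others. Among genes with a median of at least 5 CPM, the log2 range over lines was widest for ZNF486 (7.19), ZNF135 (7.13), ZNF793 (7.10), ZNF829 (7.01), ZNF714 (6.98) and ZNF737 (6.93), all KRAB zinc finger genes. The ZNF135 promoter had 22.5 CPM in MDA-MB-468, 16.8 in BT-549, 11.2 in HCC1395, 10.2 in HCC1143, 9.66 in HCC1937 and 3.33 in SUM-149PT, but 0.456 in MDA-MB-231, 0.290 in BT-20 and 0.115 in SUM-159PT. The ZNF714 promoter had 9.98 to 17.1 CPM in 7 lines, 1.0 CPM in HCC1395 and 0.0999 CPM in HCC1143. The HCC1395 value rests on DMSO replicate 3, the library with a BT-20 share, at 2.70 CPM, beside 0.182 and 0.115 CPM in replicates 1 and 2. ZNF714 was thus nearly closed in HCC1143, while SUM-159PT, where ZNF135 was nearly closed, had it open. ZNF793 had 0.125 CPM in HCC1143, 0.342 in MDA-MB-231 and 1.86 in SUM-159PT against 8.48 to 23 in the other lines. ZNF829 had 0.150 CPM in HCC1143, 0.598 in SUM-159PT and 1.29 in SUM-149PT against 12.5 to 25.0 in the other lines.

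A promoter was called near-closed in a line when its sum in DMSO replicate 1 was under 10% of the median over the 9 lines, among the 188 members with a median of at least 2 CPM. This gave 84 of 1692 gene and line pairs (4.96%), in 45 genes. By the same rule it was 1.01% of the pairs over all 14925 promoters, 0.724% over other genes of chromosome 19 and 1.22% over ZNF genes of other chromosomes. These shares are a description, and no test was made of their differences. SUM-159PT held 25 pairs, SUM-149PT 23, HCC1143 13, HCC1395 11, MDA-MB-231 9, BT-20 2 and BT-549 1, while HCC1937 and MDA-MB-468 had none. Closure came in 28 genes in 2 or more lines and in at most 3 lines for any gene. Of the 84 pairs, 47 had an adjacent member of the family closed in the same line. For other genes of chromosome 19 it was 8 of 53, in a set where closure was rarer. The remaining libraries of each line, which had no part in choosing the pairs, were then compared with the treated ones.

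**Figure D1:**
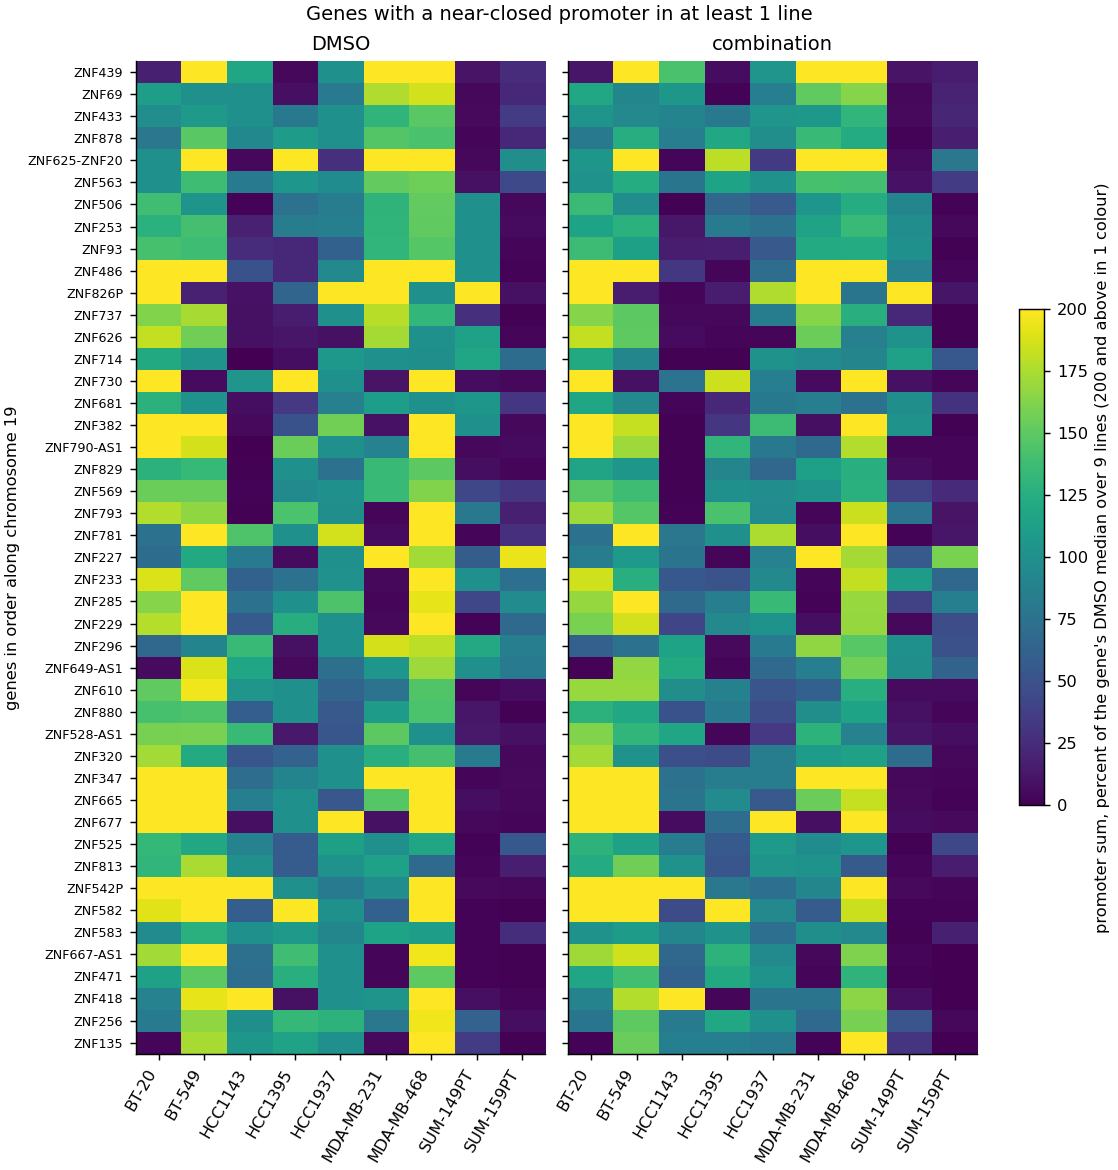
Promoter sums of the 45 genes with a near-closed promoter in at least 1 line, in order along chromosome 19 (rows), in each line (columns) with DMSO and with the combination. Colour is the percent of the gene's DMSO median over 9 lines, with 200 and above in 1 colour. Dark cells stay dark with the combination, where no closed pair passed 11.7% of the median.

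With either agent or both, the closed promoters stayed far below the level of the other lines. The 84 pairs stood at a median of 4.56% of the 9-line median in DMSO replicates 2 and 3 and at 3.05% with the combination. The combination was higher in 26 of 84 pairs, and the highest value it reached was 11.7% of the median. In the lines with single agents, 21 of 57 pairs were higher with tazemetostat and 17 with ipatasertib. The ZNF135 promoter in SUM-159PT had 0.135 CPM in DMSO replicates 2 and 3, 0.168 with tazemetostat, 0.243 with ipatasertib and 0.0212 with the combination. The ZNF714 promoter in HCC1143 had 0.0810 CPM in DMSO replicates 2 and 3 and 0.119 CPM with the combination, which rest on 2 and 5 counts. Differences of this size are not detectable at this depth. HCC1395 stood apart in its DMSO libraries. In its 11 closed pairs the median was 0.402 CPM in DMSO replicate 2, 2.58 CPM in replicate 3 and 0.253 CPM with the combination. Replicate 3 was the higher in 10 of 11. Outside HCC1395 the combination was higher in 25 of 73 pairs.

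With tazemetostat many members were less accessible and none passed the threshold upward. A gene sum adds the counts of all peaks within 10 kb of the start, and 235 of the 260 members had such a peak. Of 225 members that passed the filter on low counts, 89 fell and 0 rose against DMSO in the 4 lines (edgeR's quasi-likelihood test, adjusted p under 0.05 over all genes; 0 rose at an unadjusted p under 0.05, and DESeq2 called 0 risen and 116 fallen). Over all 23907 genes tested, 18.7% fell. The members' median log2 fold change was -0.16, and that of all genes was -0.017. The members' median was negative in each line, from -0.098 in SUM-149PT to -0.24 in SUM-159PT, and 136 members were lower in all 4 lines. The median of all genes was negative in each line too, from -0.0021 in MDA-MB-231 to -0.097 in MDA-MB-468. How many of all genes were lower in all 4 lines is not given here. Folds of the fallen members were small, from -0.54 to -0.096. The count depended on each line. Without MDA-MB-468 17 members (7.80%) fell against 5.61% of all genes, so the members' share was near the background. Without SUM-159PT it was 31 (13.8%) against 3.79%, without MDA-MB-231 42 (18.7%) against 12.4% and without SUM-149PT 45 of 225 against 9.25%. With sums over 1 kb around the start 49 (23.4%) fell against 14.7%.

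**Figure D2:**
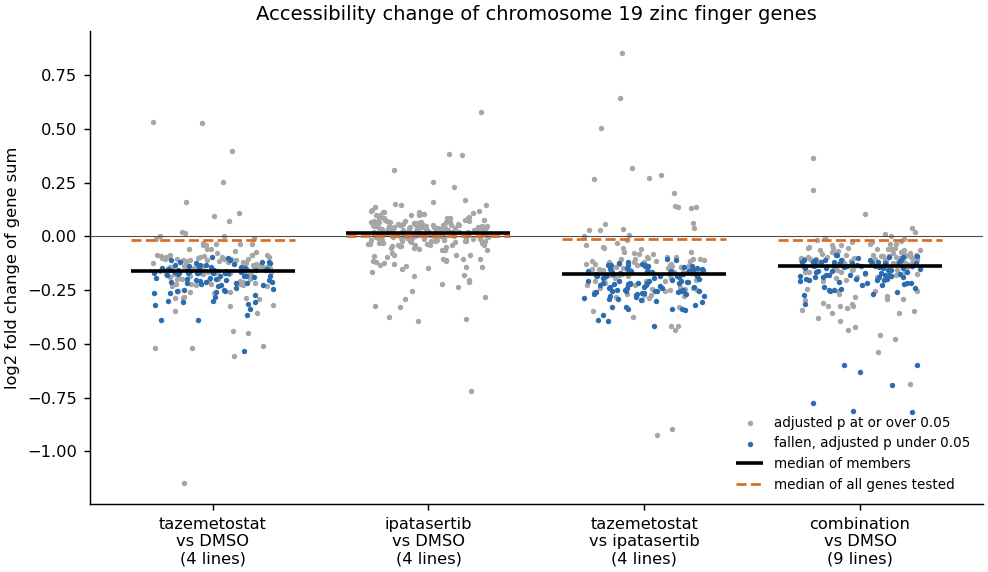
Log2 fold change of the gene sum of every tested member (points) in 4 comparisons, with blue points for members past the threshold, a black bar for the members' median and a dashed orange bar for the median of all genes tested. The members' median is -0.16 with tazemetostat against DMSO, 0.016 with ipatasertib and -0.18 for tazemetostat against ipatasertib, and no member is past the threshold upward.

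Against ipatasertib, where no DMSO group is compared, 106 of 225 members were lower with tazemetostat and 0 higher (1 higher at an unadjusted p under 0.05; DESeq2 called 130 lower and 0 higher). The fit behind these calls also holds the DMSO and combination groups. The share over all genes was 24.2%. The median was -0.18. This contrast shares the tazemetostat libraries with that against DMSO. Without MDA-MB-468 the count was 49 (22.5%, with 10.3% over all genes) and without SUM-149PT 70 (31.1%, with 13.7%).

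The members with the largest fall among those well measured were ZNF793, ZNF211 and ZNF571, all KRAB zinc finger genes. The ZNF211 gene sum was 16.5 CPM in MDA-MB-231, 21.9 in MDA-MB-468, 9.20 in SUM-149PT and 10.8 in SUM-159PT with DMSO, and 12.7, 15.2, 7.58 and 6.67 CPM with tazemetostat. With ipatasertib it was 15.8, 22.0, 8.92 and 10.4 CPM, so tazemetostat was lowest in all 4 lines. The fold against DMSO was -0.37 ± 0.06 (SE, n = 4 lines; edgeR's adjusted p = 0.0042), and against ipatasertib -0.34 ± 0.06 (edgeR's adjusted p = 0.0033). ZNF571 had 26.1, 36.5, 17.3 and 6.83 CPM in the same order of lines with DMSO, 19.7, 28.7, 15.5 and 3.44 with tazemetostat and 23.8, 35.9, 17.7 and 6.63 with ipatasertib. Its fall was deepest in SUM-159PT, the line with its lowest level. The fold against DMSO was -0.34 ± 0.09 (edgeR's adjusted p = 0.023), and it missed the threshold in 4 of 16 alternative settings. ZNF793 had 0.365, 23.1, 8.48 and 1.86 CPM with DMSO and 0.182, 18.6, 6.85 and 1.07 CPM with tazemetostat. It was near closed in MDA-MB-231 in both groups. Its fold was -0.39 ± 0.13 (edgeR's adjusted p = 0.045), and it missed the threshold in 8 of 16 settings. ZNF536, a large gene that stands alone on the chromosome and is best known from the brain, had the highest fold with tazemetostat (0.53 ± 0.39) without passing the test. It had 3.03 CPM with DMSO and 10.1 CPM with tazemetostat in MDA-MB-468, and 1.60 and 1.16 CPM in MDA-MB-231.

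**Figure D3:**
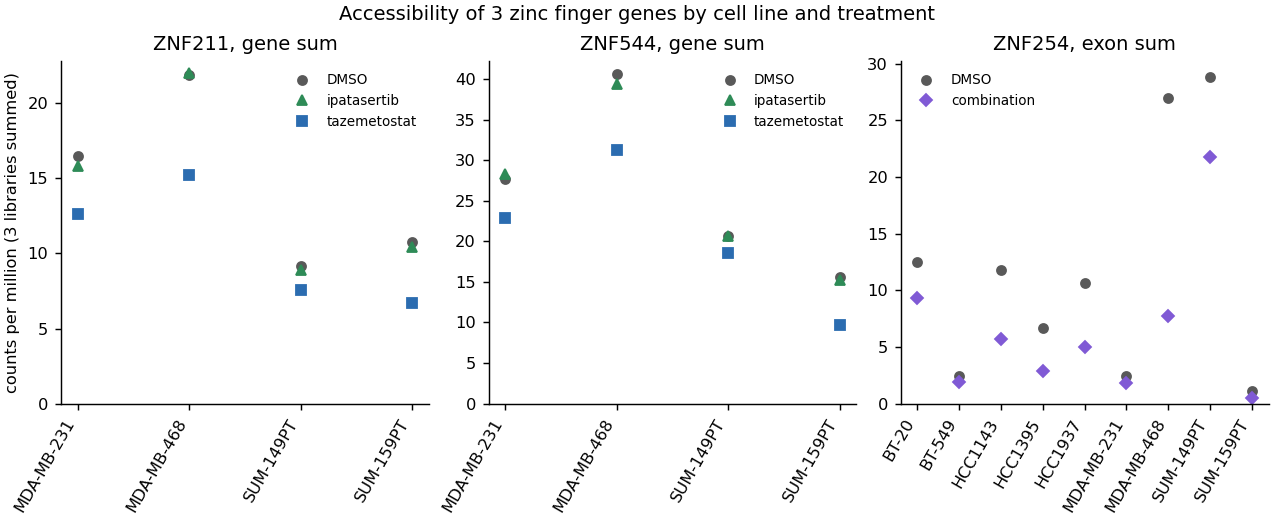
CPM by line for the gene sums of ZNF211 and ZNF544 with DMSO, ipatasertib and tazemetostat, and for the exon sum of ZNF254 with DMSO and the combination; each point is 3 libraries summed. Tazemetostat points lie below DMSO and ipatasertib in all 4 lines for ZNF211 and ZNF544, and the ZNF254 exon sum is lower with the combination in 9 of 9 lines.

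Promoter sums, which leave out all other peaks of a gene, moved like the gene sums. Of 217 members with a tested promoter sum, 88 fell and 0 rose with tazemetostat against DMSO (0 rose at an unadjusted p under 0.05 by edgeR), against 19.6% fallen over all promoter sums. The members' median was -0.17. Against ipatasertib 103 were lower and 0 higher (0 at an unadjusted p under 0.05), with 27.7% lower over all genes and a members' median of -0.20. Promoter sums of 243 ZNF genes of other chromosomes fell in 29.6% against DMSO (5 risen), beside 40.6% of the members. Other genes of chromosome 19, 1098 in all, fell in 33.2% (39 risen). Against ipatasertib these sets were lower in 44.0% (8 higher) and 38.0% (73 higher), beside 47.5% of the members. The gap to all promoters depended on each line. Without MDA-MB-468 17 members (8.10%) fell against 7.61% of all promoter sums, and without MDA-MB-231 27 (12.4%) against 11.3%, so in these fits the members' share was near the background. It was 5 (2.30%) against 1.35% without SUM-159PT and 37 (17.1%) against 9.34% without SUM-149PT. With offsets that follow the level of the peak it was 29 (13.4%) against 6.86%. Against ipatasertib the count was 51 (24.3%, with 14.9% over all) without MDA-MB-468, 65 of 217 (with 3426 of 21409 over all) without SUM-149PT and 52 (24.0%, with 9.37%) with those offsets. Members were also split by the ETS core in the promoter window. Of 78 with it, 41 (52.6%) were lower than with ipatasertib (median -0.19), and of 107 without it, 53 (49.5%) were (median -0.21). Against DMSO 40 of 78 (51.3%) and 41 of 107 (38.3%) fell with tazemetostat, with medians of -0.17 and -0.18. With the combination 28 of 77 (36.4%) and 20 of 107 (18.7%) were past the threshold, with medians of -0.11 and -0.09. No test was made of these differences.

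Promoter counts as a whole were also lower with tazemetostat, so the members were set against all promoters. In MDA-MB-468 promoters held 29.9% of all counts in peaks with DMSO, 25.6% with tazemetostat and 30.3% with ipatasertib. The share was lower with tazemetostat in 4 of 4 lines, by 5.22% to 14.4% of its DMSO value. The zinc finger genes' own part of the promoter counts was lower too in 4 of 4 lines. It went from 1.38% to 1.29% in MDA-MB-468, from 1.19% to 1.12% in MDA-MB-231, from 0.755% to 0.713% in SUM-149PT and from 0.776% to 0.682% in SUM-159PT. With ipatasertib these parts were 1.37%, 1.19%, 0.763% and 0.782%, close to DMSO in each line. The part of the general promoter loss in the members' falls was not tested.

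The members were also set beside genes of the same level. Among genes inside the middle 50% of the members' levels, 34.5% of 113 members and 17.9% of 5256 other genes fell with tazemetostat against DMSO. Against ipatasertib it was 46.9% and 22.9%, and for promoter sums 49.5% of 109 members and 32.9% of 4588 others. ZNF genes of other chromosomes fell in 72 of 262 cases (27.5%) with tazemetostat against DMSO, with 8 risen, and other genes of chromosome 19 in 402 of 1208 (33.3%), with 59 risen. Against ipatasertib 99 of 262 (37.8%) and 426 of 1208 (35.3%) were lower, with 13 and 107 higher. The members' shares were 39.6% and 47.1%. These shares describe sets that were not drawn at random, and no test was made of the differences between them.

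With ipatasertib alone no member passed the test. Of 225 members 0 rose and 0 fell by gene sum (edgeR; 0 risen and 1 fallen at an unadjusted p under 0.05; DESeq2 0), and 0% of all 23907 genes passed. The median was 0.016, and between 0.0045 and 0.028 in the 4 lines. Promoter and exon sums gave 0 calls as well (edgeR; each had 2 risen and 1 fallen at an unadjusted p under 0.05), and 0% of all promoter and of all exon sums passed. Folds of all 225 ran from -0.72 to 0.58. Among members whose log2 CPM averaged 2 or more, the lowest were those of ZNF702P (-0.39) and ZNF132 (-0.37) and the highest those of ZNF730 (0.31) and ZNF564 (0.25), all with edgeR's adjusted p = 1. The combination against tazemetostat gave 0 calls too, over the members and over all genes (0%). At an unadjusted p under 0.05 edgeR had 13 members higher and 1 lower with the combination, and DESeq2 called 0.

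With the combination in 9 lines, 92 of 220 tested members were past the threshold, all lower, and the share over all genes was 17.8%. It was 29.9% over 1186 other genes of chromosome 19 and 26.1% over 261 ZNF genes of other chromosomes. Of these 2 sets, 74 and 9 genes were past the threshold upward. The members' median was -0.14, from -0.035 in BT-20 to -0.23 in SUM-159PT, and 58 members were lower in all 9 lines. The median of all genes was negative in each line too, from -0.00016 in HCC1937 to -0.10 in MDA-MB-468. How many of all genes were lower in all 9 lines is not given here. For promoter sums 51 of 213 members (23.9%) were past the threshold, with 11% over all genes and a members' median of -0.10. It was 17.8% over other genes of chromosome 19 (74 risen) and 15.7% over ZNF genes of other chromosomes (10 risen). The count by gene sum was 50 without BT-549 (22.7%, with 10.3% over all genes) and 61 without HCC1395 (27.7%, with 12.2%). It was 61 without MDA-MB-231 (27.7%, with 12.1%) and 71 without DMSO replicate 3 of HCC1395 (32.4%, with 14.4%). The count by promoter sum was 29 without BT-549 (13.7%, with 7.22% over all), 31 without HCC1937 (14.6%, with 7.45%) and 32 without HCC1143 (15.0%, with 8.23%). The family's part of all promoter counts was lower in 9 of 9 lines, by 2.44% to 10.4% of its DMSO value, while the part of all promoters in the counts was lower in 7 of 9.

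The largest well-measured differences with the combination were those of ZNF132, ZNF726, ZNF296, ZNF274, ZNF544 and ZNF738. ZNF544 had 64.6 CPM with DMSO and 53.1 with the combination in HCC1143, 40.7 and 31.3 in MDA-MB-468, 34.8 and 27.6 in BT-549, 34.4 and 30.4 in BT-20, 30.6 and 25.7 in HCC1937, 27.7 and 23.6 in MDA-MB-231, 21.3 and 18.5 in HCC1395, 20.6 and 17.7 in SUM-149PT, and 15.7 and 10.8 in SUM-159PT. It was lower in every line, with per-line folds from -0.43 in SUM-159PT to -0.18 in BT-20, and its fold was -0.25 ± 0.03. ZNF274 went from 14.4 to 9.97 CPM in SUM-159PT, its lowest line, and from 88.6 to 72.0 CPM in HCC1143, its highest, with a fold of -0.26 ± 0.03 (9 of 9 lines). ZNF132 had a fold of -0.63 ± 0.13, with per-line folds from -1.59 to -0.08. ZNF726 had -0.27 ± 0.06, ZNF296 -0.27 ± 0.06 and ZNF738 -0.25 ± 0.08, each lower in 9 of 9 lines. ZNF738 passed in 12 of 22 settings. Tazemetostat and ipatasertib were also compared for ZNF274 and ZNF544. The gene sum of ZNF274 was 34.6, 33.9, 23.2 and 10.5 CPM with tazemetostat and 36.3, 38.3, 25.5 and 11.4 CPM with ipatasertib in MDA-MB-231, MDA-MB-468, SUM-149PT and SUM-159PT. That is a difference of -0.03 ± 0.04 (edgeR's adjusted p = 0.58). For ZNF544 it was 22.9, 31.3, 18.6 and 9.73 CPM against 28.3, 39.4, 20.6 and 15.2 CPM, a difference of -0.25 ± 0.06 (edgeR's adjusted p = 0.0060). Whether these differences differ from each other was not tested. In the fit of single peaks, where promoter peaks outside the family had a median of -0.25, the promoter peak of ZNF274 did pass (-0.35 ± 0.09, edgeR's adjusted p = 0.026), as did that of ZNF544 (-0.61 ± 0.11, edgeR's adjusted p = 0.0042). The call for ZNF274 thus depends on the fit. The gene sum of ZNF254 had -0.08 ± 0.03 with the combination, and -0.17 against ipatasertib with tazemetostat (edgeR's adjusted p = 0.022).

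Most of the members' exon peaks lay in an exon annotated as the last of its transcript. That transcript can have 1 exon only or belong to another gene. Of 304 exon peaks, 233 (76.6%) were in the last exon of a transcript, against 44.1% of the exon peaks of other genes, and for 204 the annotated exon belonged to the same gene. They were small next to the promoters. Exon counts of the family were 4.64% of its promoter counts in SUM-159PT and 14.8% in BT-20, while over all genes exon counts were 31.3% to 42.4% of promoter counts. With tazemetostat against DMSO, 4 of 107 tested exon sums fell and 0 rose (edgeR; 1 risen at an unadjusted p under 0.05), with 3.01% over all genes and a median of -0.19. They were those of ZNF77 (-0.28 ± 0.05, edgeR's adjusted p = 0.0044), ZNF155, ZNF565 and ZNF331, named after their values were seen. The count was 2 without MDA-MB-231 (1.92%, with 1.84% over all). It was 1 without any other line (0.901% to 1%, with 0.0489% to 0.989% over all). With total counts as scaling it was 12 (11.2%, with 9.70% over all). Against ipatasertib 9 were lower and 1, ZNF333, was higher, with 4.41% lower over all genes and a median of -0.17. Without 1 line it was 2 without MDA-MB-468 (2%, with 1.07% over all) and 3 without MDA-MB-231 (2.88%, with 3.97%). It was 5 without SUM-149PT (4.50%, with 1.68%) and 6 without SUM-159PT (5.41%, with 1.34%). The count against DMSO was 3.74% of the members tested, near the background share, and says little of them. Against ipatasertib the members' share was 8.41%, on 9 sums. No test was made of its difference from the share over all.

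**Figure D4:**
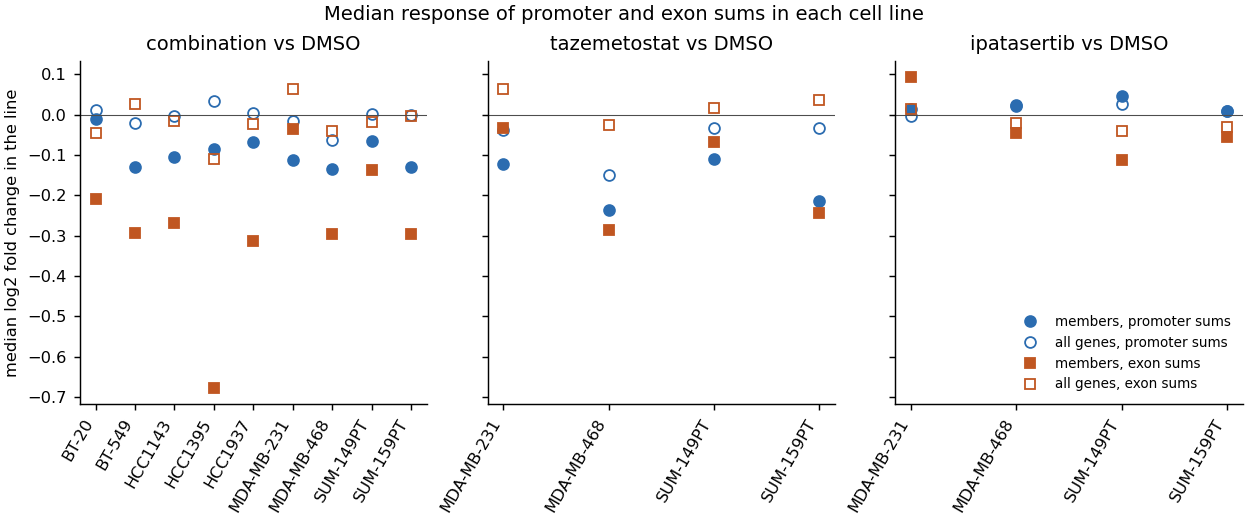
Median log2 fold change of the members (filled) and of all genes (open) in each line, for promoter sums (blue circles) and exon sums (orange squares), with the combination, tazemetostat and ipatasertib against DMSO. The exon median of the members with the combination is lowest in HCC1395, at -0.68, and highest in MDA-MB-231, at -0.036.

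With the combination, 16 of 90 tested exon sums were past the threshold, all lower, with 8.8% over all genes and a median of -0.30. Among single exon peaks it was 18 of 127, with 4.77% over all. HCC1395 had the lowest median of the 9 lines. In that line the family's exon counts were 169, 171 and 214 CPM in the DMSO libraries and 136, 132 and 135 CPM with the combination, so replicate 3 was above the others. The median fold over the exon sums in HCC1395, computed from these CPM values, was -0.67 with all 3 DMSO libraries and -0.55 without replicate 3, and for promoter sums -0.097 and -0.058. Without BT-549 the count of 16 was 9 (10.2%, with 6.09% over all exon sums). Other genes of chromosome 19 were past the threshold, lower, in 171 of 793 exon sums (21.6%) and ZNF genes of other chromosomes in 17 of 162 (10.5%).

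ZNF254 encodes a KRAB zinc finger protein, and its exon sum is led by a peak of 2030 bp over exon 4 of 4, the last (chr19:24059435-24061464, hg38), where the fingers of such genes are encoded. The exon sum was 12.5 CPM with DMSO and 9.33 with the combination in BT-20, 2.47 and 1.88 in BT-549, 11.8 and 5.67 in HCC1143, 6.67 and 2.91 in HCC1395, 10.6 and 5.01 in HCC1937, 2.44 and 1.84 in MDA-MB-231, 27.0 and 7.70 in MDA-MB-468, 28.8 and 21.8 in SUM-149PT, and 1.15 and 0.509 in SUM-159PT. All 9 lines were lower with the combination, MDA-MB-468 most, and SUM-149PT and MDA-MB-468 had the highest levels with DMSO. The fold of the exon sum was -0.83 ± 0.15, and that of the promoter sum -0.03 ± 0.03. The exon peak alone had 16.8 CPM with DMSO, 6.59 with tazemetostat, 10.6 with ipatasertib and 3.37 with the combination in MDA-MB-468. In SUM-149PT it had 22.8, 22.2, 21.0 and 18.4 CPM. Both single agents were thus lower than DMSO in MDA-MB-468, and the 4 groups of SUM-149PT were close together.

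The exon response minus the promoter response of the same gene was tested in limma on 1 value for each gene and line. With the combination, 2 of 75 members were past the threshold, both with the exon below the promoter, against 5.3% of all genes, and the members' median was -0.17 against -0.076. They were ZNF254 (-0.78 ± 0.13, lower in 9 of 9 lines) and ZNF548 (-0.50 ± 0.14, 9 of 9), a KRAB zinc finger gene whose exon sum was 0.127 to 1.84 CPM over the DMSO and combination groups. The exon of ZNF254 chose the set, so its value is a description. ZNF548 was past the threshold in 2 of 19 alternative settings. Other genes of chromosome 19 passed in 67 of 704 cases (9.52%). With tazemetostat 0 of 86 members passed (limma; 2 above and 1 below at an unadjusted p under 0.05), against 0.00718% of all genes, and the median was 0.012. With ipatasertib 0 of 86 passed (limma; 2 above and 3 below at an unadjusted p under 0.05), against 0% of all. For ZNF254 the difference was -0.20 with tazemetostat (limma's adjusted p = 0.71) and -0.40 ± 0.10 with ipatasertib (limma's adjusted p = 0.63, below in 4 of 4 lines). The exon sum of ZNF254 did not differ between tazemetostat and ipatasertib past the threshold (-0.03 ± 0.20, edgeR's adjusted p = 0.93).

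**Figure D5:**
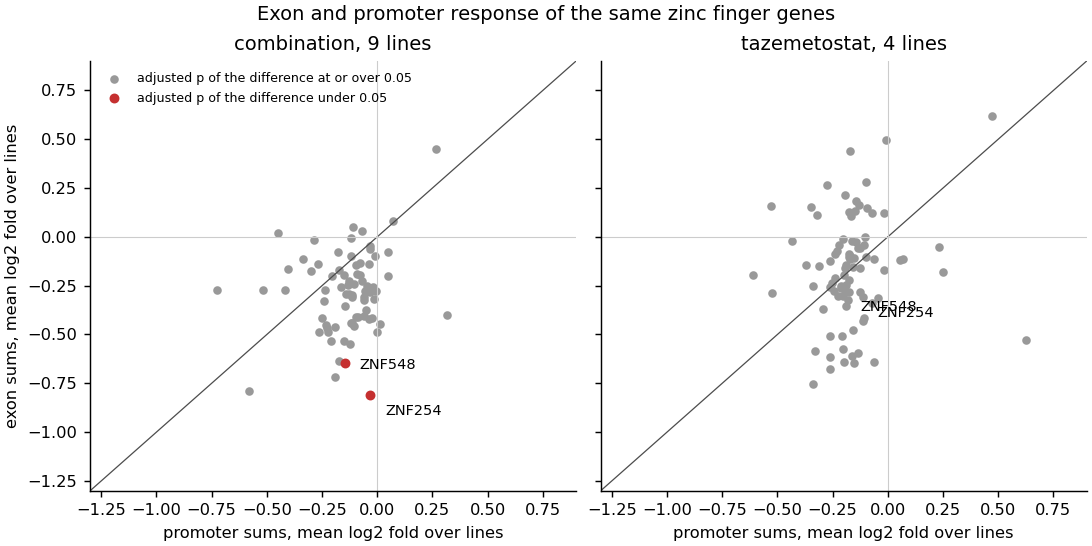
Mean log2 fold change of the exon sums (vertical) against that of the promoter sums (horizontal) of the same members, for the combination in 9 lines and tazemetostat in 4, with the diagonal of equal change. Red points passed the test of the difference: with the combination ZNF254, at -0.81 for the exon and -0.03 for the promoter, and ZNF548, and with tazemetostat none.

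Other exon sums with the largest falls in the combination were those of ZNF529, ZNF132, ZNF274, ZNF473 and ZNF788P. ZNF529 had 7.04 CPM with DMSO and 3.73 with the combination in BT-20, 5.26 and 3.02 in MDA-MB-468, 3.65 and 2.60 in MDA-MB-231, 2.03 and 0.840 in BT-549, 1.67 and 0.781 in HCC1395, 0.907 and 0.569 in HCC1937, 0.644 and 0.542 in SUM-149PT, 0.50 and 0.0714 in HCC1143, and 0.391 and 0.170 in SUM-159PT. The HCC1143 values rest on 20 and 3 counts. Its fold was -0.85 ± 0.17, and its exon sum was also lower with tazemetostat than with ipatasertib (-0.57 ± 0.17, edgeR's adjusted p = 0.024). Its main exon peak (chr19:36577322-36577891) lies in an exon that the annotation gives to another gene. The same holds for the main exon peak of ZNF132 (chr19:58428382-58429352). The ZNF132 exon sum had a fold of -0.77 ± 0.14 beside -0.54 ± 0.13 at its promoter, so exon and promoter were both lower. ZNF274 had -0.49 ± 0.11 in exons and -0.22 ± 0.03 at the promoter. ZNF473, which takes part in histone mRNA processing, had -0.43 ± 0.12 and -0.10 ± 0.02, and ZNF788P, a pseudogene without a tested promoter sum, -0.31 ± 0.09. The values of ZNF473 and ZNF788P passed in 15 and 14 of 21 settings.

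With gaps of at most 1 Mb the members fall into 15 groups along the chromosome. The largest, of 60 members at 55476617 to 58475436 near the end of the long arm, had 54 tested by gene sum in each fit. Of these 26 fell with tazemetostat (median -0.17), and 30 were past the threshold with the combination. The shares fallen over all genes were 18.7% with tazemetostat and 17.8% with the combination. A group of 32 members at 36182060 to 37779586 had 16 of 27 fallen with tazemetostat (median -0.21), and the group of 27 members at 11483429 to 12610813 had 11 of 23 (median -0.17). The group around ZNF254, with 33 members at 19668153 to 24129968, had 4 of 27 fallen with tazemetostat against DMSO. That share was not above the share over all genes, though the group's median of -0.16 was like the others. This group held 20 of the 84 closed pairs, the most of any group. The lone ZNF536 and a group of 3 had positive medians. The 198 other genes that lie inside these groups fell in 47 of 180 tested cases (26.1%) with tazemetostat and those outside in 355 of 1028 (34.5%), with medians of -0.126 and -0.114. Against ipatasertib it was 47 of 180 (26.1%) and 379 of 1028 (36.9%), with medians of -0.114 and -0.098. With the combination the order of the shares turned round, at 57 of 170 (33.5%) inside and 298 of 1016 (29.3%) outside. No test was made of these differences.

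A list of 30 genes held the partners of KRAB proteins and other genes of silent chromatin: enzymes that place or remove methyl groups on H3 lysine 9 or on DNA, chromatin remodellers, and the DNA-binding proteins CTCF and YY1. Of these 25 were tested. With tazemetostat against DMSO 11 fell and 0 rose, with a median of -0.13, where 18.7% of all genes fell. Against ipatasertib 14 were lower and 0 higher, with a median of -0.15, where 24.2% of all genes were lower. With ipatasertib 0 passed (median 0.029). With the combination 9 were past the threshold, all lower (median -0.079), where the share over all genes was 17.8%. Against ipatasertib the lowest were MPHOSPH8, a subunit of the HUSH silencing complex (-0.30 ± 0.06, edgeR's adjusted p = 0.0051), and CBX1, an HP1 protein (-0.30 ± 0.05, edgeR's adjusted p = 0.0028). YY1 followed at -0.26 ± 0.06, the H3 lysine 9 methyltransferase SUV39H2 at -0.23 ± 0.05, UHRF1, which guides maintenance DNA methylation, at -0.22 ± 0.03, and the demethylase KDM4B at -0.20 ± 0.06. TRIM28, the KRAB corepressor itself, fell by 0.16 ± 0.04 against ipatasertib. SETDB1 did not pass in any of the 4 comparisons.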

How the data were processed

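ATAC-seq libraries of 9 lines were analysed from a table of read counts per peak that the authors deposited, in whole numbers and not normalised, and from the authors' table that assigns each peak a gene, a genomic class and a distance to the start (in bp, deposited as other numbers). The submitters' processing notes name MACS2, featureCounts and hg38. How reads were aligned, whether duplicates were removed and whether read ends were shifted is not given in the sources used here; counts over whole peaks change little with a shift of a few bases, and removal of duplicates would lower dense peaks. The 61 peaks without a symbol were left out of gene sums.

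The members, lists, rules and tests were chosen with earlier results of these data known. Counts of the 3 libraries of a group were summed, since replicates differed by less than sampling noise; no label says whether they came from separate cultures. Sums over peaks within 10 kb of the start, over promoter peaks and over exon peaks were tested for all genes with the edgeR 4.0.16 quasi-likelihood test in R 4.3.3 (filterByExpr with a minimum count of 10, TMM scaling, robust fit, line as block), p-values adjusted by Benjamini-Hochberg over all features and called under 0.05. Exon minus promoter responses were tested with limma 3.58.1 (trend, robust) on log2 CPM with a prior count of 2. CPM values are summed counts scaled to the total counts in peaks, without TMM scaling, while folds include it, so a fold and a ratio of CPM can differ. The scripts were tested on simulated data. Depth was 12292571 to 21459284 counts for each library. The same number of replicates was not taken as pairing: over 27 pairs of same-numbered libraries, 0 had a correlation of deviations over 0.1. With replicates this alike, the check cannot exclude pairing.

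Named genes are ZNF254 and, for each comparison, those with the largest change past the threshold, at a mean log2 CPM over 2, and 1 direction in at least 8 of 9 (or 4 of 4) lines: 6 for the combination, 3 for each agent (or the 2 and 2 largest where none passed), and 6 exon sums. Genes past the threshold for exon minus promoter, the 4 highest, 4 lowest and 6 most variable promoters, and the 4 most like ZNF254 were added. Symbols with a hyphen are counted but not named. Alternatives were DESeq2 1.42.0, other scalings, filters and windows, last exons alone, exons of the same gene ID, the replicate block, and fits without each line or replicate number. Tazemetostat against ipatasertib and the closed promoters of other genes were added after seeing the data. Protein features were not analysed here.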

Additional observations from a re-analysis of the deposited data

Results flagged for a closer look

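The 24 sets of lines checked were not all of 9 lines, since the single agents were used in fewer. In 5 sets, each of 9 lines, 1 line stood far from the other 8. Chance was taken as about 1 set in 20. The sets differ in their number of lines, so 5 of 24 is a description only. These 5 sets are all of the combination against DMSO. In SUM-159PT the log2 fold of the gene sum was -0.86 for ZNF726 and -0.87 for ZNF738, below the other 8 lines. The exon sum of ZNF529 had -2.24 in HCC1143, on 20 counts with DMSO and 3 with the combination. The exon sum of ZNF788P had -0.87 in HCC1395, and the median over all exon sums was -0.68 in that line, whose DMSO replicate 3 had the higher exon counts of its group; without that library the median, from CPM values, was -0.55.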

How the results depend on the processing

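No direction was reversed. Of 363 values of 18 results on named genes under alternatives, 311 kept their call and 52 missed the threshold. The cause of the shifts below was not tested. With total counts as scaling, the median of all genes with tazemetostat moved to -0.12 and that of the members to -0.26 (-0.27 against ipatasertib). Counts of fallen members are followed here by their share of the members tested, against the share over all features. With tazemetostat they then were 150 by gene sum (66.7% against 35.4%), 140 by promoter sum (64.5% against 37.4%) and 12 by exon sum (11.2% against 9.70%). Against ipatasertib it was 14 exon sums (13.1% against 10.2%). With the combination it was 94 promoter sums (44.1% against 21.3%) and 28 exon sums (31.1% against 15.3%). With abundance-trended offsets 29 promoter sums (13.4% against 6.86%) and 9 exon sums (8.41% against 3.34%) fell with tazemetostat. Lower than with ipatasertib were 52 (24.0% against 9.37%) and 17 (15.9% against 5.93%), with 0 exon sums higher. With the combination 25 exon sums (27.8% against 13.8%) were lower and 1 promoter sum was higher. Exon minus promoter responses were not run with these offsets. With size factors 8 exon sums (7.48% against 3.97%) fell with tazemetostat. With a window of 1 kb 49 genes (23.4% against 14.7%) fell with tazemetostat and 1 was higher with the combination. With 50 kb 1 was higher with tazemetostat and 1 against ipatasertib. With exons of the same gene ID 5 exon sums (6.41% against 4.16%) were lower than with ipatasertib. With last exons alone or a minimum count of 30 none was higher (0).

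ZNF254 alone (1 gene) had an exon below its promoter response with the combination under last exons, a minimum count of 30, no filter, size factors, total counts and without HCC1395 DMSO replicate 3. Leaving out 1 line, 1 replicate number or DMSO replicate 3 of HCC1395 gave these ranges of fallen members. With the combination it was 50 to 93 genes (22.7% to 43.5% of those tested, against 10.3% to 17.5% of all genes). Exon sums were 9 to 17 (9 to 15 with a line or replicate number left out), or 10.2% to 19.5% against 5.66% to 8.90%. Promoter sums were 29 to 48 (with 0 to 1 higher), or 13.7% to 22.6% against 7.22% to 11.4%. The exon was below the promoter response in 1 to 2 genes, or 1.30% to 3.33% against 2.26% to 5.37%. With tazemetostat it was 17 to 91 genes (7.80% to 40.6%, against 3.79% to 21.4% of all). Promoter sums were 5 to 62 (48 without replicate 1 and 54 without replicate 2), or 2.30% to 28.7% against 1.35% to 19.6%. Exon sums were 1 to 4, or 0.901% to 4.08% against 0.0489% to 2.26%. Against ipatasertib it was 49 to 110 genes (0 to 1 higher), or 22.5% to 49.1% against 10.3% to 25.3%. Promoter sums were 51 to 91 (0 to 1 higher), or 24.3% to 42.3% against 14.9% to 25.7%. Exon sums were 2 to 9 (0 to 1 higher), or 2% to 9.47% against 1.07% to 3.97%.

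Same-numbered libraries of a line did not deviate together (median r = -0.0024 over 27 pairs, -0.089 to 0.094). Nearly all replicates differed by less than sampling noise, so this check cannot tell whether the numbers pair samples. A fit of single libraries with the replicate block takes its spread from those libraries rather than from lines. With it 142 member genes were lower (67.9% against 29.9% of all genes) and 3 higher with the combination. With tazemetostat it was 160 (72.7% against 35.5%) and 1, and for tazemetostat against ipatasertib 161 (73.2% against 38.0%) and 2. With ipatasertib 1 was lower (0.455% against 0.159%). For promoter sums the replicate block gave 132 lower (65.0% against 30.4%) and 1 higher with the combination, and 151 (71.2% against 37.1%) and 1 with tazemetostat. For tazemetostat against ipatasertib it gave 153 lower (72.2% against 41.0%) and 1 higher. With ipatasertib 1 was lower (0.472% against 0.106%). For exon sums the replicate block gave 33 lower (58.9% against 26.5%) and 1 higher with the combination, and 20 (27.4% against 15.0%) and 2 with tazemetostat. Against ipatasertib 22 were lower (30.1% against 16.3%). The same fit gave 11 members with the exon below the promoter response with the combination (24.4% against 25.4%) and 1 with tazemetostat (1.67% against 5.01%).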
